A study of Mus musculus with 9 samples.

Results

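Transcripts of 10 genes of the autophagy machinery were followed in cells of mouse C2C12, an established muscle line whose myoblasts can fuse into myotubes. The genes were taken by their names on the array as Map1lc3a, Map1lc3b, Gabarapl1, Gabarapl2, Sqstm1, Becn1, Ulk1, Atg5, Atg7 and Atg12. All 10 were measured, out of 21992 genes with a usable signal and 30325 genes on the array. They are covered by 13 probes, each of which was well above background on all 9 arrays. The cells were exposed for 72 h to vehicle, to 1 nM or to 10 nM of 1,25-dihydroxyvitamin D3 (calcitriol), the hormonal form of vitamin D, with 3 biological replicates per group by the design text of the series. The series title speaks of murine myotubes, and the sources used here do not say at which stage of differentiation calcitriol was added. All groups are the same cell line, without any genetic change named in the labels. Total RNA of each sample was labelled with Cy3 and hybridised to its own 1-colour array.

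Macroautophagy encloses cytoplasm, protein aggregates and worn organelles in a double membrane, the autophagosome, which then fuses with lysosomes. The ULK1 kinase complex starts the process, and the lipid kinase complex that contains Beclin 1 (Becn1) marks the membrane where the autophagosome grows. ATG7 activates the ubiquitin-like proteins ATG12 and those of the ATG8 family (LC3 and GABARAP proteins), ATG12 is joined to ATG5, and that conjugate promotes the attachment of ATG8 proteins to membrane lipid. Cargo receptors such as p62 (Sqstm1) bind ubiquitin-marked cargo and ATG8 proteins at once, and are degraded with the cargo. In skeletal muscle this pathway clears damaged mitochondria, is raised by fasting and denervation, and has several of its genes under FoxO transcription factors. The values here are transcript levels, and lipidated LC3 protein and autophagic flux were not measured. RNA came from whole cultures, in which fewer cells of a type and less RNA per cell cannot be told apart.

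The ATG8 genes are paralogs, so the probes that separate them are shown by the first 30 of their 60 bases, written 5′ to 3′ in lower case.
Map1lc3a: ggctcctaaactaagctatttcagtcccca
Map1lc3b: cactgctctgtcttgtgtaggttgtatacg
Gabarapl1: caatctgtacgtctgttttgtcagcttcag
Gabarapl2: ctccacacagacctactagtgcatttgtaa
The longest run of bases shared by any pair of these full probes was 6. In the mm9 build of the files the Map1lc3a probe lies at chr2:155103435-155103494 and the Map1lc3b probe at chr8:124121771-124121830. The Gabarapl1 probe lies at chr6:129492254-129492313 and the Gabarapl2 probe at chr8:114476386-114476445, and these 4 probes are on the plus strand. Exon and UTR boundaries were not analysed here.

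Sqstm1 was covered by a bright and a dim probe, which gave different results below and are therefore shown in the same way.
Sqstm1 bright probe: tgtcttcaaaagaagtggacccatctacag
Sqstm1 dim probe: accccgttaccctgacctgataaatcccat
The bright probe lies at chr11:50015985-50016044 and the dim one at chr11:50012868-50012927 (mm9), both on the minus strand.

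Levels are log2 of the processed signal minus the 75th percentile of the same array, so a level of 0 equals that percentile. On this scale, 6 of the 10 genes rose at 10 nM, 5 of these rose at 1 nM too, and none was called lower. The genes that rose at 10 nM were the 4 ATG8 genes of this set, the cargo receptor gene Sqstm1 and Atg12. Gabarap, a further ATG8 gene outside the 10, was measured and not called. The genes for the upstream steps (Ulk1 and Becn1) and the other conjugation genes (Atg5 and Atg7) did not pass the test at either dose. A gene was called when its adjusted p was under 0.05 in limma with Benjamini-Hochberg adjustment over all 21992 genes. At 1 nM 11.8% of all genes were called higher and 11.8% lower, and at 10 nM 15.4% were called higher and 14.7% lower. The median log2 difference of the 10 genes was 0.34 at 1 nM and 0.37 at 10 nM, against -0.09 and -0.11 over all genes. Both doses are compared with the same 3 vehicle samples, so the results of the doses are not independent. The 10 genes were chosen with earlier results of these data known, so their counts are no independent test against the all-gene shares.

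The vehicle replicate 3 array stood apart from the other 8. Of its spots, 94.8% were well above background against 65.7% to 77.7% elsewhere, and 6124 were marked non-uniform against 8 to 56. None of the member probes lost its value on that array. Without it, 4 of the 5 calls at 1 nM and all 6 calls at 10 nM held. The members' median difference was then 0.356 at 1 nM, against -0.019 for all genes, and 0.445 at 10 nM, against -0.039. Slides split the arrays across groups, with vehicle replicates 1 and 2 on slide 1 and vehicle replicate 3 on slide 2, so slide 2 compares the doses with the array that stood apart. Within slide 1 just 1 of the 10 genes was called at 1 nM and 2 at 10 nM, from 1 array per dose. Within slide 2 these counts were 5 and 6, but there the array that stood apart was the only vehicle array, and of 20281 genes 2799 were called higher and 7217 lower at 10 nM, again from 1 array at that dose. With each array scaled to its median, 1 of the 10 genes (Map1lc3b) was called at 1 nM and 4 at 10 nM, and the members' median difference was 0.83 at 1 nM, against 0.38 for all genes, and 0.90 at 10 nM, against 0.40. The slide of 10 nM replicate 3 held no other sample.

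**Figure D1:**
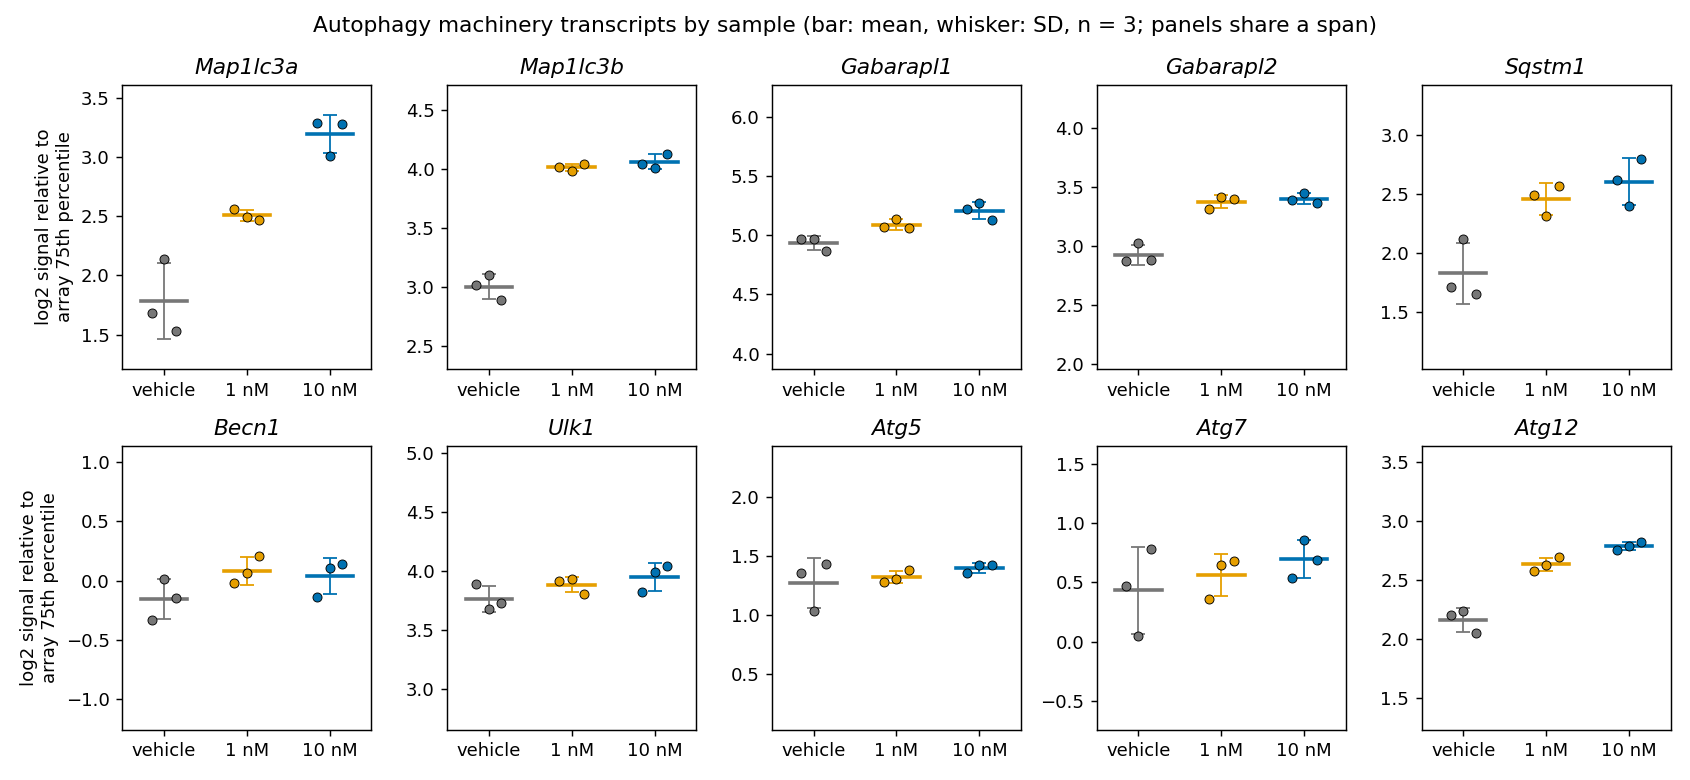
Log2 signal relative to the array's 75th percentile (y axis) of the 10 genes in each sample of the vehicle, 1 nM and 10 nM groups (x axis), with the group mean as a bar and the SD as a whisker (n = 3). Map1lc3a, Map1lc3b, Gabarapl1, Gabarapl2, Sqstm1 and Atg12 have every treated sample above every vehicle sample, whereas Becn1, Ulk1, Atg5 and Atg7 have overlapping groups.

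Map1lc3b encodes LC3B, the ATG8 protein most used to mark autophagosomes. It stood at 3.02, 3.10 and 2.89 in vehicle replicates 1 to 3, at 4.02, 3.98 and 4.04 at 1 nM, and at 4.04, 4.01 and 4.13 at 10 nM. The 6 treated samples lay close together, between 3.98 and 4.13, and all were above the vehicle samples. The rise was 1.01 at 1 nM (SE 0.08, 2.01-fold, adjusted p = 5.77e-05) and 1.06 at 10 nM (SE 0.08, 2.08-fold, adjusted p = 2.99e-05). Between the doses the difference was 0.05, with a 95% interval from -0.12 to 0.23. The probe has 10 spots on each array, whose SD within an array ran from 0.05 to 0.17. Within slides 1 and 2 the differences at 10 nM were 0.98 and 1.12. Both calls held under all 24 alternatives that were run.

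Map1lc3a encodes LC3A, a second LC3 protein. Its levels were 1.68, 2.14 and 1.53 in vehicle, 2.56, 2.49 and 2.47 at 1 nM, and 3.29, 3.01 and 3.28 at 10 nM. The groups formed 3 steps with no overlap, and vehicle had the widest spread. Map1lc3a rose by 0.72 at 1 nM (SE 0.16, 1.65-fold, adjusted p = 0.0147) and by 1.41 at 10 nM (SE 0.16, 2.66-fold, adjusted p = 0.000394). The 10 nM samples exceeded the 1 nM samples by 0.69 (95% interval 0.32 to 1.06), which missed the threshold after adjustment (adjusted p = 0.0671). Without vehicle replicate 2 or vehicle replicate 3, whose values enter the shared spread, that adjusted p was 0.0133 or 0.0342. With the replicate number as a block over all groups, vehicle included, it was 0.176, which is not a paired test of the doses alone. The call at 1 nM was lost without vehicle replicate 1, with the normexp-based and median scalings, in the submitters' table and within slide 1, where the difference was 0.65 against 0.95 within slide 2. At 10 nM the difference was 1.38 within slide 1 and 1.48 within slide 2, and its call held under all 24 alternatives.

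Gabarapl2, which encodes the GABARAP-type protein also called GATE-16, stood at 2.87, 3.02 and 2.88 in vehicle, 3.31, 3.41 and 3.40 at 1 nM, and 3.39, 3.45 and 3.36 at 10 nM. As for Map1lc3b, the treated groups overlapped each other and lay above vehicle. The rise was 0.45 at 1 nM (SE 0.07, adjusted p = 0.00278) and 0.48 at 10 nM (SE 0.07, 1.39-fold, adjusted p = 0.00154). The difference between doses was 0.03, with a 95% interval from -0.14 to 0.19. Within slide 1 the 10 nM difference was 0.44 and not called (adjusted p = 0.212), and within slide 2 it was 0.57.

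Gabarapl1, the fourth ATG8 gene here and a known FoxO target, had levels of 4.97, 4.97 and 4.87 in vehicle, 5.07, 5.14 and 5.06 at 1 nM, and 5.22, 5.27 and 5.13 at 10 nM. The vehicle samples lay below all treated samples, but by less than for the other ATG8 genes. The difference at 1 nM was 0.15 (SE 0.07, adjusted p = 0.152), and at 10 nM it was 0.27 (SE 0.07, 1.21-fold, adjusted p = 0.0185). The 10 nM call was lost when 10 nM replicate 1 or 10 nM replicate 2 was left out, with normexp correction, with median scaling (also without vehicle replicate 3), with only the vehicle and 10 nM groups fitted and within slide 1, where the difference was 0.25 against 0.40 within slide 2.

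Sqstm1, read by its bright probe, stood at 1.71, 2.12 and 1.65 in vehicle, 2.49, 2.31 and 2.57 at 1 nM, and 2.62, 2.40 and 2.79 at 10 nM. Vehicle replicate 2 was the highest of its group, and both treated groups lay above it and overlapped each other. The rise was 0.63 at 1 nM (SE 0.16, 1.55-fold, adjusted p = 0.0239) and 0.78 at 10 nM (SE 0.16, 1.71-fold, adjusted p = 0.00741). The 1 nM call was lost when any of vehicle replicate 1, vehicle replicate 3, 1 nM replicate 1 or 1 nM replicate 3 was left out. Without vehicle replicate 3 it was 0.54 (adjusted p = 0.0566), and the 10 nM difference was then 0.69 (adjusted p = 0.0191). Within slides 1 and 2 the 10 nM differences were 0.70, not called, and 0.75.

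The dim Sqstm1 probe gave differences of the other sign, which rested on vehicle replicate 3. It read -3.40, -3.40 and -0.41 in vehicle, -2.95, -3.03 and -3.11 at 1 nM, and -2.82, -2.95 and -2.95 at 10 nM. Vehicle replicate 3 was far above all other samples, while the other vehicle samples lay below all 6 treated ones. Its differences, -0.63 at 1 nM and -0.50 at 10 nM, were not called. When the probes of each gene were averaged, Sqstm1 was not called at either dose.

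Atg12, the ubiquitin-like protein gene of the ATG12-ATG5 conjugate, stood at 2.20, 2.24 and 2.05 in vehicle, 2.58, 2.63 and 2.69 at 1 nM, and 2.75, 2.79 and 2.82 at 10 nM. The 3 groups did not overlap, and each dose group varied by an SD of at most 0.05. Atg12 rose by 0.47 at 1 nM (SE 0.07, 1.38-fold, adjusted p = 0.00268) and by 0.62 at 10 nM (SE 0.07, 1.54-fold, adjusted p = 0.000447). A second, dimmer Atg12 probe read -0.78, -0.75 and -0.74 in vehicle, -0.47, -0.31 and -0.37 at 1 nM, and -0.14, -0.05 and -0.11 at 10 nM. It gave the same order of groups without overlap, with differences of 0.37 and 0.65 that were both called. Within slide 1 the 10 nM difference of the main probe was 0.53 and not called, and within slide 2 it was 0.74.

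**Figure D2:**
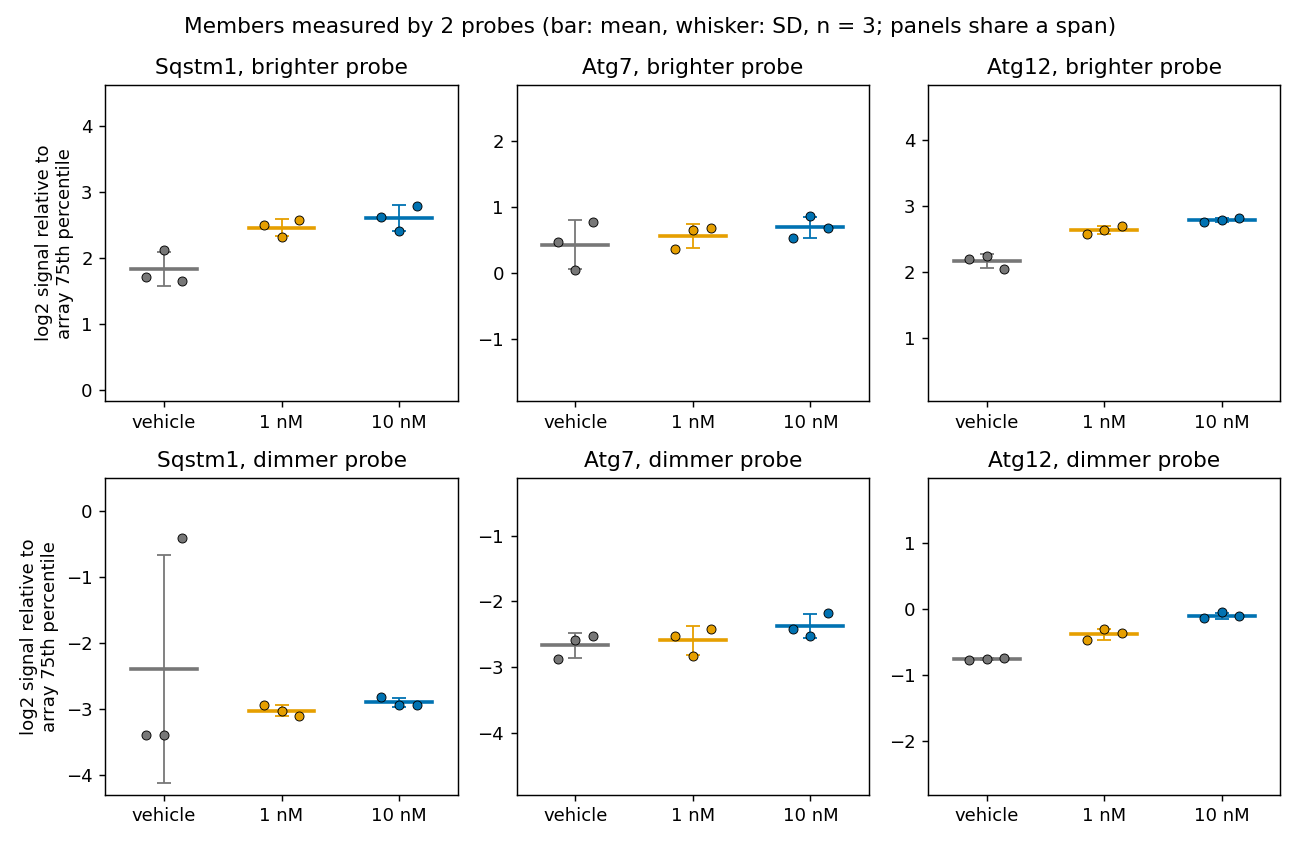
Log2 signal relative to the array's 75th percentile (y axis) by group (x axis) for the genes read by a pair of probes, Sqstm1, Atg7 and Atg12, with the mean as a bar and the SD as a whisker (n = 3). Both Atg12 probes rise from vehicle to 10 nM, whereas the dim Sqstm1 probe has 1 vehicle sample at -0.41, far above the rest.

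Atg5 and Atg7, which act with Atg12 in conjugation, did not pass the test. Atg5 stood at 1.35, 1.03 and 1.43 in vehicle, 1.28, 1.30 and 1.38 at 1 nM, and 1.35, 1.42 and 1.42 at 10 nM. Its groups overlapped, and the 10 nM difference was 0.13 with a 95% interval from -0.12 to 0.38. Atg7, the activating enzyme, read 0.47, 0.05 and 0.78 in vehicle, 0.36, 0.65 and 0.68 at 1 nM, and 0.54, 0.86 and 0.69 at 10 nM. Its vehicle samples spanned more than the treated ones, and the 10 nM difference of 0.26 had an interval from -0.19 to 0.71. The dimmer Atg7 probe differed by 0.29 at 10 nM and was not called either. These intervals leave room for rises as large as that of Atg12 in the case of Atg7, and of up to 0.38 for Atg5.

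Ulk1, the kinase that starts autophagosome formation, stood at 3.89, 3.68 and 3.73 in vehicle, 3.92, 3.93 and 3.81 at 1 nM, and 3.82, 3.99 and 4.04 at 10 nM. The groups overlapped. Its difference was 0.12 at 1 nM (adjusted p = 0.383) and 0.18 at 10 nM (95% interval -0.03 to 0.39, adjusted p = 0.173). Becn1 had levels of -0.33, 0.01 and -0.15 in vehicle, -0.02, 0.06 and 0.21 at 1 nM, and -0.14, 0.11 and 0.14 at 10 nM, again with overlap. Its differences were 0.24 (adjusted p = 0.205) and 0.20 (95% interval -0.08 to 0.47, adjusted p = 0.254). With array weights in limma, Becn1 was called higher at both doses, by 0.40 (adjusted p = 0.00428) and 0.37 (adjusted p = 0.016).

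Counted by overlap alone, 6 of the 10 genes had every 1 nM sample above every vehicle sample, where 19.8% of all genes did, and 6 of 10 did so at 10 nM, where 21.8% of all genes did. Between the doses none of the 10 genes was called higher, where 1.6% of all genes were, and 1 of the 10 (Map1lc3a) had an unadjusted p under 0.05. Map1lc3a was called there by limma with an intensity trend, with array weights and with those groups alone. Map1lc3a and Atg12 had every 10 nM sample above every 1 nM sample, where 12.6% of all genes did. The median difference between the doses was 0.10 over the 10 genes and -0.01 over all genes.

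**Figure D3:**
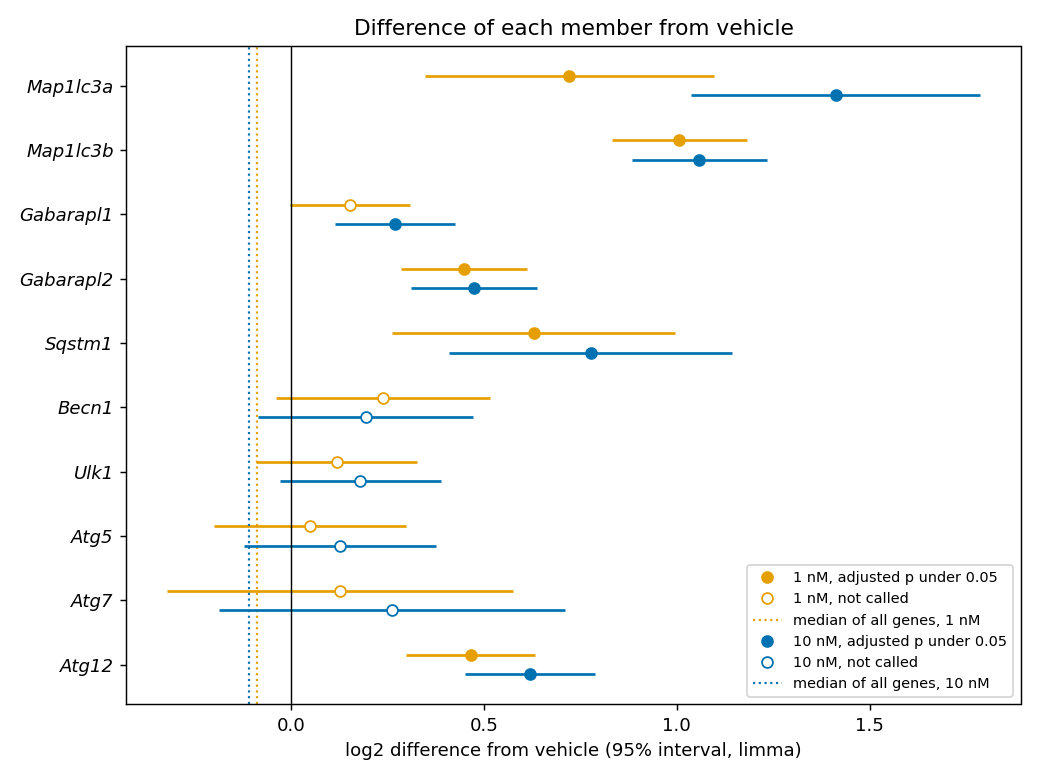
Log2 difference from vehicle (x axis) of each gene at 1 nM and 10 nM with its 95% interval from limma; filled points passed an adjusted p of 0.05 and dotted lines mark the median of all genes. The differences at 10 nM run from 0.13 for Atg5 to 1.41 for Map1lc3a, to the right of the median of all genes at -0.11.

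Promoter sequences from RefSeq (GRCm38.p6) were matched for 7 of the 10 genes, and are shown for 1 gene that rose and 1 that did not as the 250 bases before the start of the gene, 5′ to 3′ along its own strand. Capitals mark matches to CACGTG, the E-box core bound by TFEB-type factors.
Map1lc3b, chr8:121590188-121590437, plus strand: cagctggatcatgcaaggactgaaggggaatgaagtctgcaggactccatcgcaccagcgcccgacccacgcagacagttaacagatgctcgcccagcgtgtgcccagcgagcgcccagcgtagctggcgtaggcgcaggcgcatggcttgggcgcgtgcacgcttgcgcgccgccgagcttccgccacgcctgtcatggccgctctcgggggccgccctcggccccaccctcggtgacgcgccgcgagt
Atg5, chr10:44268089-44268338, plus strand: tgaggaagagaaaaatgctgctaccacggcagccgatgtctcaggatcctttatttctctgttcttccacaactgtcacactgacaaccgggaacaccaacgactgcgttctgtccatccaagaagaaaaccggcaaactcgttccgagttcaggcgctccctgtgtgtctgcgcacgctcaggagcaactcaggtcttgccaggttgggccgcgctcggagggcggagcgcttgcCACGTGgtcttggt
On either strand CACGTG was found in 2 of the 7 windows, those of Atg5 and Atg7, and in 6.03% of 32544 promoter windows of the same length. The windows of Map1lc3b, Gabarapl1, Gabarapl2, Sqstm1 and Ulk1 held none. TGACNNNGC, the core of the antioxidant response element, was in 0 of 7 windows and 10.2% of all windows, and GTAAACA, a forkhead core, was in 0 of 7 and 3.17%. The DR3 direct repeat of the vitamin D response element, searched as exact letters, was in 0 of 7 windows and 2 of all windows. A match or its lack describes only these letters in this window.

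Among other genes of the pathway, more were called higher than lower at both doses. Of 144 genes in 9 lists, 141 were measured, and Atg9b, Atg4a and Ctss were not. At 1 nM 59 of the 141 (41.8%) were called higher and 8 lower, where 11.8% of all genes were called higher and 11.8% lower. At 10 nM 69 (48.9%) were called higher and 10 lower, where 15.4% and 14.7% of all genes were. These all-gene shares also stand beside the counts of single lists and of markers below. The lists were chosen with earlier results of these data known, so their counts are no independent test against those shares. The median log2 difference of the 141 genes was 0.25 at 1 nM and 0.30 at 10 nM, against -0.09 and -0.11 over all genes. Without vehicle replicate 3 that median was 0.261 and 0.285, against -0.019 and -0.039 over all genes. Between the doses 4 (2.84%) were called higher, where 1.6% of all genes were, and 1 lower. With the replicate number as a block 3 were called there, when the number of all genes called higher fell from 351 to 198. Within slide 1 4 of the 141 genes were called at 1 nM and 14 at 10 nM, and within slide 2, against the array that stood apart, 71 and 61.

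**Figure D4:**
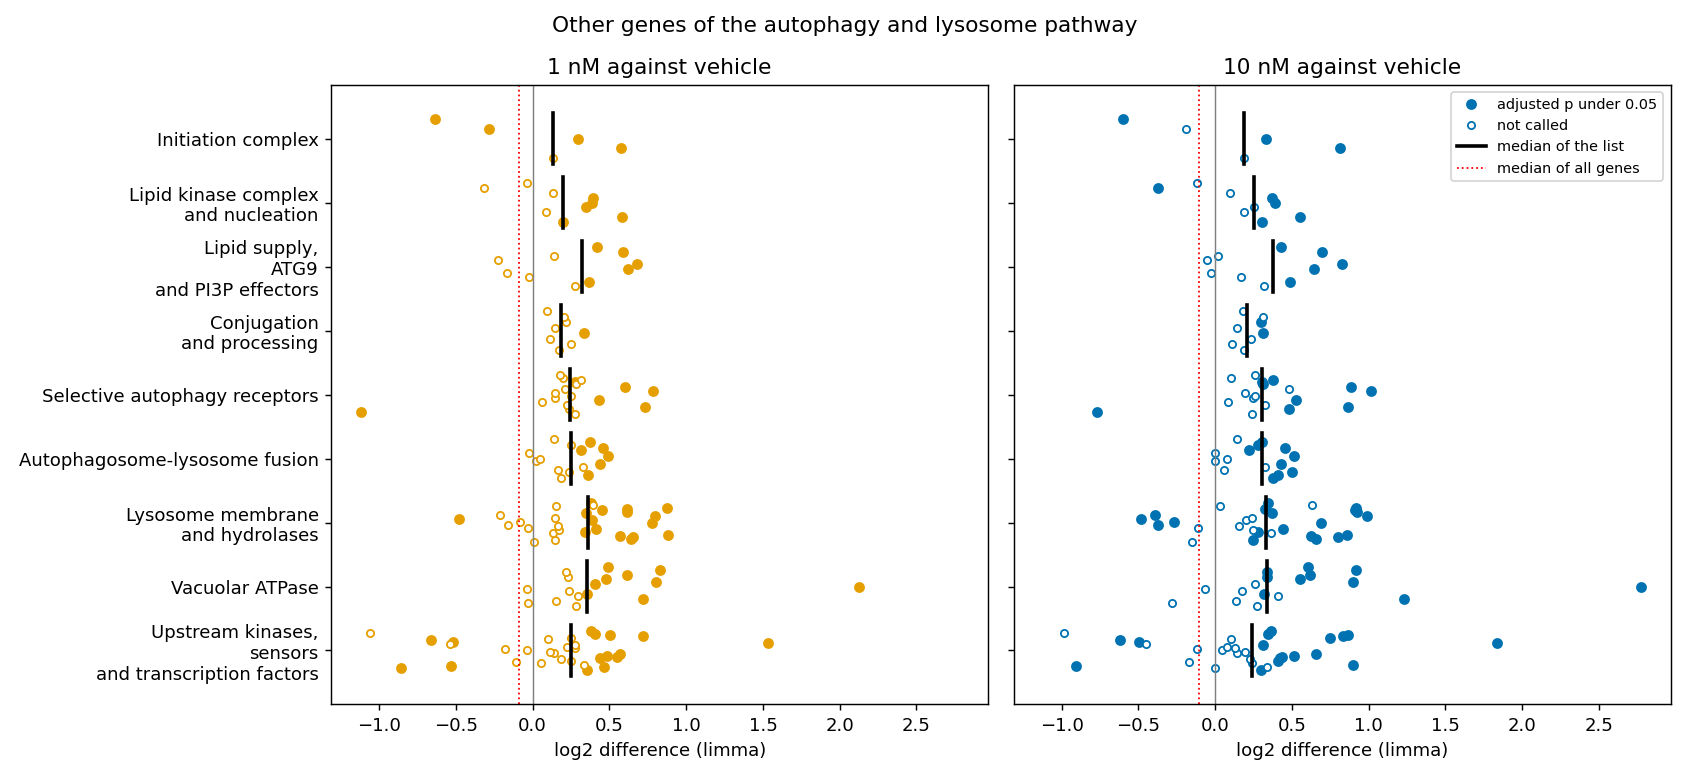
Log2 difference from vehicle (x axis) of 141 further autophagy and lysosome genes in 9 lists (y axis) at 1 nM and 10 nM; filled points passed an adjusted p of 0.05 in limma and the black bar is the list's median. All 9 list medians lie right of 0, from 0.14 to 0.36 at 1 nM and from 0.19 to 0.37 at 10 nM, and the farthest point is Atp6v0e2 at 2.13 and 2.77.

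In the initiation complex, 2 of 5 genes rose and 2 fell at 1 nM, and 2 rose and 1 fell at 10 nM. Atg13, which links ULK1 to its scaffold, stood at 2.30, 2.28 and 2.47 in vehicle, 2.85, 2.90 and 3.03 at 1 nM, and 3.09, 3.24 and 3.17 at 10 nM. Its groups did not overlap, and the rise was 0.57 and 0.81 (adjusted p = 0.00202 and 0.00023). Rb1cc1, that scaffold (FIP200), rose by 0.30 and 0.33, but the 1 nM call was lost when 1 nM replicate 1, 1 nM replicate 2 or 1 nM replicate 3 was left out. A dimmer Rb1cc1 probe differed by 0.15 and 0.14 and was called at neither dose. Ulk3, a ULK-type kinase, fell by 0.63 and by 0.60 on its brighter probe, while its other probe differed by 0.14 and 0.23 and was not called.

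Of the 9 genes of the lipid kinase complex and nucleation, 5 rose at 1 nM, and 4 rose and 1 fell at 10 nM, beside Becn1, which was not called. Atg14, the subunit that directs the complex to autophagy, read -0.78, -0.62 and -0.81 in vehicle, -0.19, -0.14 and -0.13 at 1 nM, and -0.15, -0.18 and -0.21 at 10 nM. Both treated groups lay above vehicle and overlapped each other, with rises of 0.58 and 0.56 (adjusted p = 0.000697 and 0.000646). The catalytic subunit gene Pik3c3 rose by 0.39 at both doses on the brighter of its 2 probes. Its other probe differed by 0.36 and 0.34 (SE 0.215 at each dose) and was not called. The regulatory subunit gene Pik3r4 rose by 0.39 and 0.37. Leaving out 1 nM replicate 1 or 1 nM replicate 3 ended the 1 nM call of Pik3c3. Sh3glb1, a Beclin 1 pathway partner (Bif-1), fell by 0.37 at 10 nM (adjusted p = 0.0254). That call ended when vehicle replicate 1, 10 nM replicate 1 or 10 nM replicate 2 was left out, and with the replicate number as a block (adjusted p = 0.0571). Its dimmer probe differed by -0.28 and was not called, and with array median scaling, where the median of all genes was 0.40, the difference turned to 0.16.

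Among 10 measured genes for lipid supply and PI3P effectors, 5 rose at each dose. Wdr45 (WIPI4), a PI3P effector, rose by 0.68 and 0.83 (adjusted p = 0.000217 and 5.36e-05), and Wipi2, which recruits the conjugation machinery, by 0.59 and 0.69. A dimmer Wipi2 probe differed by 0.15 at 1 nM, not called, and rose by 0.29 at 10 nM (adjusted p = 0.0448). Vmp1, an endoplasmic reticulum lipid scramblase, stood at 4.71, 4.52 and 4.54 in vehicle, 5.11, 5.28 and 5.25 at 1 nM, and 5.07, 5.35 and 5.27 at 10 nM. Its treated groups overlapped, above vehicle, and the rise was 0.62 and 0.64. In the conjugation list, beside Atg5, Atg7 and Atg12, 1 of 8 measured genes (12.5%) rose at 1 nM and 2 (25%) at 10 nM, where 11.8% and 15.4% of all genes did. Gabarap, for which the GABARAP branch of the ATG8 family is named, is described after its values were seen, and read 4.50, 4.67 and 4.23 in vehicle, 4.51, 4.66 and 4.51 at 1 nM, and 4.68, 4.67 and 4.59 at 10 nM. Its groups overlapped, and it differed by 0.09 at 1 nM and by 0.18 at 10 nM (95% interval -0.09 to 0.45, adjusted p = 0.273). Atg3, the enzyme that attaches ATG8 proteins to lipid, rose by 0.33 and 0.31 (adjusted p = 0.0204 and 0.0218). Both calls of Atg3 ended without vehicle replicate 1, the 1 nM call without any single 1 nM replicate, and the 10 nM call without 10 nM replicate 2 or 10 nM replicate 3. Atg4c, an ATG8 protease gene, rose by 0.30 at 10 nM on the brighter of its probes.

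Of 18 genes of selective autophagy receptors, beside Sqstm1, 5 rose and 1 fell at 1 nM, and 8 rose and 1 fell at 10 nM. Pink1, the kinase that marks damaged mitochondria, stood at 2.80, 2.58 and 2.76 in vehicle, 3.47, 3.48 and 3.55 at 1 nM, and 3.65, 3.77 and 3.78 at 10 nM. Its 3 groups did not overlap, and it rose by 0.78 and 1.02 (adjusted p = 0.00032 and 5.38e-05). Calcoco1 and Retreg1, receptors for endoplasmic reticulum, rose by 0.74 and 0.60 at 1 nM and by 0.86 and 0.88 at 10 nM, and the 1 nM call of Retreg1 ended without 1 nM replicate 2 or 1 nM replicate 3. Bnip3, a mitochondrial receptor that is known as a target of hypoxia and FoxO factors, went down. It read 4.41, 4.28 and 4.23 in vehicle, 3.02, 3.27 and 3.28 at 1 nM, and 3.51, 3.57 and 3.52 at 10 nM, with the lowest group at 1 nM and no overlap between groups. Bnip3 fell by 1.12 at 1 nM (adjusted p = 9.97e-05) and by 0.77 at 10 nM (adjusted p = 0.000525), and all 3 of its probes were called lower at both doses.

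In the fusion list, 6 of 15 genes rose at 1 nM and 9 at 10 nM, and none was called lower. Vps11 and Vps33a, subunits of the HOPS tethering complex, rose by 0.49 and 0.46 at 1 nM and by 0.51 and 0.45 at 10 nM. Tecpr1, a tether that binds the ATG12-ATG5 conjugate, rose by 0.44 and 0.43, and Rab7 by 0.50 at 10 nM. Of 28 measured lysosomal membrane and hydrolase genes, 15 rose at each dose, and 1 fell at 1 nM and 4 at 10 nM. Lamp2, a lysosomal membrane protein needed for fusion, stood at 3.68, 3.28 and 3.51 in vehicle, 4.20, 4.30 and 4.36 at 1 nM, and 4.45, 4.53 and 4.46 at 10 nM. It rose by 0.80 and 0.99 (adjusted p = 0.00125 and 0.000284), with no overlap between groups and with both of its probes called higher. Psap, which encodes the saposin precursor, rose by 0.87 and 0.92, the protease gene Ctsf by 0.88 and 0.86, and the sialidase gene Neu1 by 0.62 and 0.93.

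Of 17 genes of the vacuolar ATPase, the proton pump of lysosomes, 9 rose at 1 nM and 10 at 10 nM, and none was called lower. Atp6v0e2 read 0.17, 0.40 and 0.38 in vehicle, 2.30, 2.53 and 2.49 at 1 nM, and 2.92, 3.26 and 3.09 at 10 nM. That rise, 4.36-fold at 1 nM and 6.83-fold at 10 nM, was the widest of the 141 genes at either dose (adjusted p = 1.19e-05 and 1.85e-06). Atp6v0a2 rose by 0.72 and 1.23, Atp6v1g1 by 0.83 and 0.92, and Atp6v1b2 by 0.80 and 0.90. Atp6v0e2 and Atp6v0a2 were also called between the doses, with 10 nM above 1 nM by 0.65 and 0.51 (adjusted p = 0.025 and 0.0304), and with the replicate number as a block the adjusted p was 0.0149 and 0.106. The call of each ended when 1 nM replicate 2, 1 nM replicate 3, 10 nM replicate 2 or 10 nM replicate 3 was left out, and that of Atp6v0e2 also without 1 nM replicate 1. Within slides 1 and 2 neither was called between the doses, with differences of 0.61 and 0.75 for Atp6v0e2 and of 0.25 and 0.59 for Atp6v0a2.

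Upstream of the machinery, 11 of 31 genes for kinases, sensors and transcription factors rose and 4 fell at 1 nM, and 14 rose and 3 fell at 10 nM. Sesn1, a sestrin that restrains mTORC1, stood at 1.33, 1.28 and 1.60 in vehicle, 2.79, 2.98 and 3.04 at 1 nM, and 3.14, 3.20 and 3.38 at 10 nM. The groups did not overlap, and Sesn1 was 2.89-fold and 3.58-fold higher than vehicle (adjusted p = 6.75e-05 and 1.68e-05). Ddit4 (REDD1), another mTORC1 restraint, read 3.68, 3.63 and 3.72 in vehicle, 2.71, 2.89 and 2.86 at 1 nM, and 3.61, 3.72 and 3.69 at 10 nM. It was low at 1 nM alone, with a fall by 0.86 (adjusted p = 0.000112), a 10 nM difference of 0.00 from vehicle and a 10 nM level 0.85 above 1 nM (adjusted p = 0.00116, and 0.00985 with the replicate number as a block). Within slides 1 and 2 that last difference was 0.90 and 0.84, with neither called. Trp53inp1, whose protein binds LC3, rose by 0.72 and 0.83 on its brighter probe and by 0.37 and 0.44 on the other, which had no value on vehicle replicate 3. Both calls were lost when the gene's probes were averaged array by array, with differences of 0.002 and 0.093, since on vehicle replicate 3 that average holds the brighter probe alone.

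Of the FoxO genes, Foxo1 fell at 10 nM, and Foxo3 rose there on the brighter of its probes. Foxo1 stood at 2.03, 2.02 and 1.84 in vehicle, 1.42, 1.42 and 1.46 at 1 nM, and 1.09, 1.09 and 0.99 at 10 nM. It fell by 0.53 and by 0.91 (adjusted p = 0.0015 and 5.9e-05), and both of its probes were called lower at both doses. Foxo3 read -3.05, -3.04 and -2.86 in vehicle, -2.70, -2.75 and -2.50 at 1 nM, and -2.14, -2.18 and -1.93 at 10 nM. It differed by 0.33 at 1 nM (adjusted p = 0.0583) and rose by 0.90 at 10 nM (adjusted p = 0.000455). A dimmer Foxo3 probe, without a value on vehicle replicate 3, differed by -0.15 at 10 nM and was not called. The 10 nM call of Foxo3 was lost when the gene's probes were averaged. Within slides 1 and 2 its 10 nM difference from vehicle was 0.90 and 0.68. Between the doses Foxo1 fell by 0.38 (adjusted p = 0.0343, and 0.0793 with the replicate number as a block) and Foxo3 rose by 0.57 (adjusted p = 0.028, and 0.0173 with the block). Both of these calls ended without vehicle replicate 1 and without any single treated sample. Within slides 1 and 2 the differences were -0.33 and -0.35 for Foxo1 and 0.56 and 0.44 for Foxo3, and none was called. Array median scaling, which put the all-gene median at 0.38 for the lower dose and 0.40 for the higher, left none of Foxo1, Bnip3, Ulk3 and Ddit4 called lower. The differences at 1 nM were then -0.04 for Foxo1, -0.14 for Ulk3, -0.37 for Ddit4 and -0.63 for Bnip3. Those at 10 nM were -0.38 for Foxo1, -0.07 for Ulk3 and -0.24 for Bnip3. The median signal of vehicle replicate 3 was 659.6, against 215.6 to 315.4 on the other arrays. With median scaling and that array left out, a setting chosen after seeing the data, Foxo1 and Bnip3 were called lower at both doses. Ddit4 was then called lower at 1 nM, and Ulk3 was called at neither dose.

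For the 4 members with the widest difference at 10 nM, the genes whose levels over the 9 arrays had the highest Pearson r were taken from 14518 genes with a symbol and a value on all arrays. These r values describe arrays that share a treatment and a scaling, and thus the steps between the groups. For Map1lc3a they were Igfbp3 (r = 0.9933), Igfbp4 (0.9892) and Arhgap18 (0.9887). Igfbp3, an IGF-binding protein gene, had mean levels of -1.63, -0.76 and 0.04 in vehicle, 1 nM and 10 nM, which are 3 steps like those of Map1lc3a. For Map1lc3b they were Slc1a6 (0.997), Gstp1 (0.9958) and Myom3 (0.9952), with means of 3.14, 4.55 and 4.65 for the glutathione transferase gene Gstp1. For Sqstm1 they were Fbxl17 (0.9882), Akr7a5 (0.9861) and Map3k11 (0.985). For Atg12 they were Cluh (0.9986), Acox3 (0.9957) and Letm2 (0.9951), with means of 2.46, 3.08 and 3.32 for Cluh, whose protein binds mRNAs of mitochondrial proteins.

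Markers of cell state moved with the treatment as well. The mean level of 5 cycling cell markers (Mki67, Top2a, Ccnb1, Cdk1 and Birc5) ran from 1.92 to 2.07 over vehicle samples, from -2.21 to -1.99 at 1 nM and from -2.90 to -2.84 at 10 nM, and all 5 were called lower at both doses. The mean of 9 measured myogenic markers ran from 3.87 to 4.13 in vehicle and from 4.32 to 4.41 at each dose. Of these 9, 4 were called higher at 1 nM, and 5 higher and 1 (Myog) lower at 10 nM, while Myf5 was not measured. Of 5 adipocyte markers, whose mean ran from -6.67 to -3.66 in vehicle, from -5.57 to -5.18 at 1 nM and from -4.71 to -4.31 at 10 nM, 1 (Adipoq) was called higher, at 10 nM. Fibroblast markers averaged -0.19 to 0.20 in vehicle, -0.43 to -0.24 at 1 nM and -0.69 to -0.49 at 10 nM, with 3 of 5 called higher and 2 lower at 1 nM, and 2 higher and 2 lower at 10 nM. None of the 4 measured macrophage markers was called by limma at either dose, with means from -2.88 to -1.55 in vehicle, at -2.53 at 1 nM and from -2.90 to -2.17 at 10 nM, and 1 of 3 measured endothelial markers (Tek) was called higher at both doses. On vehicle replicate 3 Pecam1 and Tek had no value, and the means of the 3 endothelial markers were -2.15 to -1.97 in the other vehicle samples and -1.44 to -1.05 with calcitriol. The part of these markers in the autophagy results was not tested.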

How the data were processed

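Each of 9 samples of C2C12 total RNA was read on its own 1-colour array. The deposited scanner files hold processed, mean and background signals as intensity values on a linear scale, the processed ones background-subtracted and detrended by the scanner software, with flags for control spots, uniformity, saturation and background, per the file headers. Agilent Feature Extraction 11.5.1.1 and limma (no version given) are named in the submitters' processing notes. The series table deposited by the authors holds normalized log2 values, whose normalization steps are not stated, and these served as an alternative. No spot was saturated.

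Processed signals were scaled here to the 75th percentile of their array and taken to log2. Control and non-uniform spots were dropped, and repeat spots averaged per probe. Probes were retained where some group had them well above background on each of its 3 arrays (28339 of 39429 probes), and the brightest retained probe stood for its gene. Names came from a reference gene table (GRCm38.p6) through accessions (21033 retained probes) or symbols (2168), and otherwise from the files (5138). Limma 3.58.1 in R 4.3.3 (lmFit, eBayes) fitted all groups at once without a block, with Benjamini-Hochberg adjustment over 21992 genes, and the procedure was tested on simulated data. Replicates are separate per the series' design text, and the number of arrays limits the precision.

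The members and lists were chosen with earlier results of these data known. Named were all members, the up to 3 called genes of each list with the widest difference per dose, and the 3 genes most like each of 4 members, and some genes may be left unreported here. Replicate numbers were checked as pairs by the correlation of deviations from group means. For 1 nM with 10 nM it was 0.484, 0.329 and 0.144 for replicates 1 to 3, and these were taken as pairs. The main fit between the doses still had no block. The replicate block was fitted over all groups, vehicle included, so its adjusted p is not that of a paired test of the doses alone. Replicate 1 of both doses lay on slide 1 and replicate 2 on slide 2, whereas replicate 3 lay on slides 2 and 3. A shared replicate and a shared slide therefore cannot be told apart. For vehicle with 1 nM the correlation ran from -0.021 to 0.053 and for vehicle with 10 nM from -0.42 to -0.186. These were not taken as pairs, and the vehicle deviations include the array that stood apart. Alternatives changed the background correction, scaling, filter, probe choice, spread model, weights, groups fitted, blocks, thresholds and the arrays left out.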

Additional observations from a re-analysis of the deposited data

How the results depend on the processing

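Of the 11 calls of the members against vehicle, those of Map1lc3b at both doses and of Map1lc3a at 10 nM held under all 24 alternatives. The call of Sqstm1 at 1 nM was lost under 10, which include the replicate block, where 4 members were called at 1 nM and 6 at 10 nM. No other call of a member changed with the block, though vehicle numbers were not taken as pairs with the treated ones. At 1 nM the 5 members called became 1 with array median scaling and 1 within slide 1. They became 3 in the submitters' table, 3 at an adjusted p under 0.01, 3 at 1.5-fold or more, and 3 with median scaling without vehicle replicate 3 (chosen after seeing the data). Leaving out each array gave 3 to 5, with 3 without vehicle replicate 1. At 10 nM 2 of the 6 remained called within slide 1. With array weights 7 members were called at each dose, with Becn1 added at both and Gabarapl1 at 1 nM. Between the doses, where none was called, limma called 1 (Map1lc3a) with an intensity trend and robust spread, 1 with array weights, 1 with those groups alone, and 0 to 1 with each array left out. The number of wider genes called at 1 nM, 67, became 10 with median scaling, 36 with median scaling without vehicle replicate 3, 109 with array weights, 4 within slide 1, 42 at the stricter p and 25 at 1.5-fold. At 10 nM that number went from 79 to 26 with median scaling, 14 within slide 1, 50 at the stricter p and 32 at 1.5-fold. Between the doses it went from 5 to 0 with median scaling, within slide 1 and within slide 2. It became 1 in the submitters' table, without the filter on dim probes, with the slide as a block, at the stricter p, and with median scaling without vehicle replicate 3. It became 2 with quantile normalization or at 1.5-fold, 3 with normexp correction and 3 with the replicate block. It became 8 with those groups alone, 9 with the trend and 12 with array weights, and from 1 to 7 with each array left out, with 1 without 1 nM replicate 2, 1 nM replicate 3 or 10 nM replicate 3 and 2 without 1 nM replicate 1 or 10 nM replicate 2. Sh3glb1 at 10 nM turned to 0.155 with median scaling. Median scaling moved the median of all genes from -0.089 to 0.377 at 1 nM and from -0.108 to 0.398 at 10 nM, and that of the members from 0.344 to 0.834 and from 0.373 to 0.901. The share of calls over all genes that were higher went from 49.9% to 62.1% and from 51.2% to 67.1%. The weights stopped before full convergence, and the cause of these changes was not tested. Within a slide 1 or 2 arrays per group leave few degrees of freedom. The dim probes of Sqstm1, Atg7 and Foxo3 lie closer to background than the bright ones.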

Other observations

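Some pathway genes outside the rule for named genes were singled out after their values were seen. The sestrin genes, whose proteins restrain mTORC1, did not move together. Sesn2 stood at 0.82, 0.86 and 0.80 in vehicle, 0.46, 0.31 and 0.15 at 1 nM, and 0.45, 0.31 and 0.23 at 10 nM, with both treated groups below vehicle. It fell by 0.52 at 1 nM (adjusted p = 0.0067) and by 0.50 at 10 nM (adjusted p = 0.00638). Sesn3 read 0.42, 0.22 and 0.35 in vehicle, -0.28, -0.36 and -0.35 at 1 nM, and -0.30, -0.31 and -0.26 at 10 nM, again without overlap with vehicle. It fell by 0.66 (adjusted p = 0.000352) and by 0.62 (adjusted p = 0.000358), whereas Sesn1 rose at both doses. With array median scaling, which moves the median of all genes to 0.38 at 1 nM and 0.40 at 10 nM, the differences of Sesn2 were -0.03 and 0.03 and those of Sesn3 -0.17 and -0.09, and none was called.

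Among the lysosomal genes called lower at 10 nM, against 15 genes of that list called higher, were 3 hydrolases. Lipa, the acid lipase, differed from vehicle by -0.21 at 1 nM, not called, and by -0.39 at 10 nM (adjusted p = 0.0169). Glb1, the acid galactosidase, differed by -0.16, not called, and by -0.37 (adjusted p = 0.0277). Gusb, the glucuronidase, differed by -0.08, not called, and by -0.27 (adjusted p = 0.0379), and its 10 nM call was lost in the submitters' table (-0.21, adjusted p = 0.209). None of the 3 was called between the doses by limma, at adjusted p = 0.597, 0.5 and 0.412. Median scaling moves the median of all genes from -0.11 to 0.40 at 10 nM, and with it none of the 3 was called there.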
